A study of Mus musculus with 10 samples.

Results

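Integrins are the receptors that attach cells to the extracellular matrix. The 10 subunit genes described here, Itgb1, Itgb5, Itgb8, Itgav, Itga1, Itga3, Itga5, Itga6, Itga7 and Itga9, are those of a set that leaves out the subunits restricted to leukocytes, and every probe set annotated to each symbol was followed. They had 31 probe sets of the 34945 that carry a single gene symbol, and 10 of the 18193 genes so named. In each comparison a gene was represented by its brightest probe set, and genes were tested where the mean of that probe set over all arrays reached the median of all probe sets. Of the 10 subunits, 9 passed this filter, and 17 of their 31 probe sets did; Itga1 did not pass and is described separately.

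The cells were primary cultures of cerebellar granule cell precursors from mice without Bmi1 (Bmi-1-/-, called knockout) and from wild type mice. Bmi1 encodes a Polycomb group protein that represses the Cdkn2a locus. The sample labels give pups of postnatal day 5 to 7, while the text on the series gives day 7. Cells were freed with trypsin from cerebella stripped of meninges and vessels, plated on poly-L-lysine and grown for 24 hours in medium with 10% fetal calf serum and 20 mM KCl. Treated cultures then received Sonic hedgehog (Shh), the mitogen of these precursors, for 24 hours at a concentration the labels give as 3 mg/ml. The 4 groups were wild type untreated (n = 3, replicates 1, 3 and 5), knockout untreated (n = 3, replicates 2, 4 and 6), wild type with Shh (n = 2, replicates 7 and 9) and knockout with Shh (n = 2, replicates 8 and 10). All 10 arrays share the serum, the KCl, the coating and the trypsin step. Neither the number of animals per culture nor the total time that untreated cells were kept is given, so time in culture and Shh cannot be told apart. A treatment note on wild type replicate 3 mentions Shh where applicable, but its other labels call it untreated and it was used as such.

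An integrin is a pair of 1 alpha and 1 beta subunit, and the pair sets the ligand. Subunit beta 1 joins many alpha subunits: with alpha 3, alpha 6 and alpha 7 it forms laminin receptors, with alpha 1 a collagen receptor, with alpha 5 a fibronectin receptor, and with alpha 9 a receptor for tenascin C and other ligands. The alpha V chain joins beta 5 in a vitronectin receptor and beta 8 in a receptor that activates latent TGF-beta. In the developing cerebellum beta 1 integrins are known for holding glial endfeet to the laminin of the basement membrane and for granule precursor proliferation on laminin, and beta 8 is known for its role in radial glia and vessel development.

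Signals are the linear intensities of the MAS5 algorithm, scaled by the submitters so that the trimmed mean of every array is 500. Median signal was 84.8 to 91.2 on untreated arrays and 66.8 to 72.3 on Shh arrays. A ribosomal RNA control probe set read 993 on replicate 1 and 2260 on replicate 6, against 217 to 595 on the others. The Bmi1 probe set 1417493_at read 3958 ± 290 in wild type and 3610 ± 259 in knockout untreated cells (SD, n = 3 each). Which exons the knockout allele lacks is unstated, so this level does not check the genotype. Cdkn2a, the gene Bmi1 represses, was 7.92-fold higher in knockout cells untreated and 14.1-fold higher with Shh (limma adjusted p = 9.5e-05 and 0.00013). The Shh target Ptch1 rose with Shh by 0.98 log2 units in wild type and 0.92 in knockout (adjusted p = 9.75e-05 and 0.000196). Gli1 rose by 1.05 in wild type and 0.57 in knockout (adjusted p = 0.000235 and 0.0069). Hhip, checked as a further Shh target, did not pass (0.07 and 0.41, adjusted p = 0.825 and 0.199).

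With Shh, the transcripts of Itgb5, Itga3 and Itga6 passed as lower in both genotypes in the main fit, and none of the 9 tested subunits rose. Of 21 alternative fits, described below, the knockout call held in 20 for Itgb5, in 12 for Itga6 and in 4 for Itga3. In wild type cells 3 of 9 passed the test as lower, against 19.8% of all genes tested. In knockout cells 3 of 9 passed as lower, against 17% of all genes, and they were the same 3 genes. The knockout count was 1 without replicate 4, 5, 7 or 9 (Itgb5) or 10 (Itga3), and with consecutive array numbers as a block Itga3 no longer passed there (adjusted p = 0.0565). Over both genotypes together 5 of 9 fell (Itgb1, Itgb5, Itgb8, Itga3 and Itga6), against 26.2% of all genes; without replicate 4 or 10 these were 3, Itgb5, Itga3 and Itga6. The 0 of 9 that rose compare with 14% of all genes in wild type, 11.1% in knockout and 20.9% on average. The median log2 difference of the 9 subunits was -0.39 in wild type, -0.39 in knockout and -0.38 on average, beside medians of -0.01, -0.01 and -0.01 over all genes. Differences are log2 signal with Shh minus log2 signal untreated, and calls are limma tests with Benjamini-Hochberg adjusted p below 0.05 over 11397 genes. The average over genotypes reuses the arrays of the separate comparisons and adds no independent evidence.

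**Figure D1:**
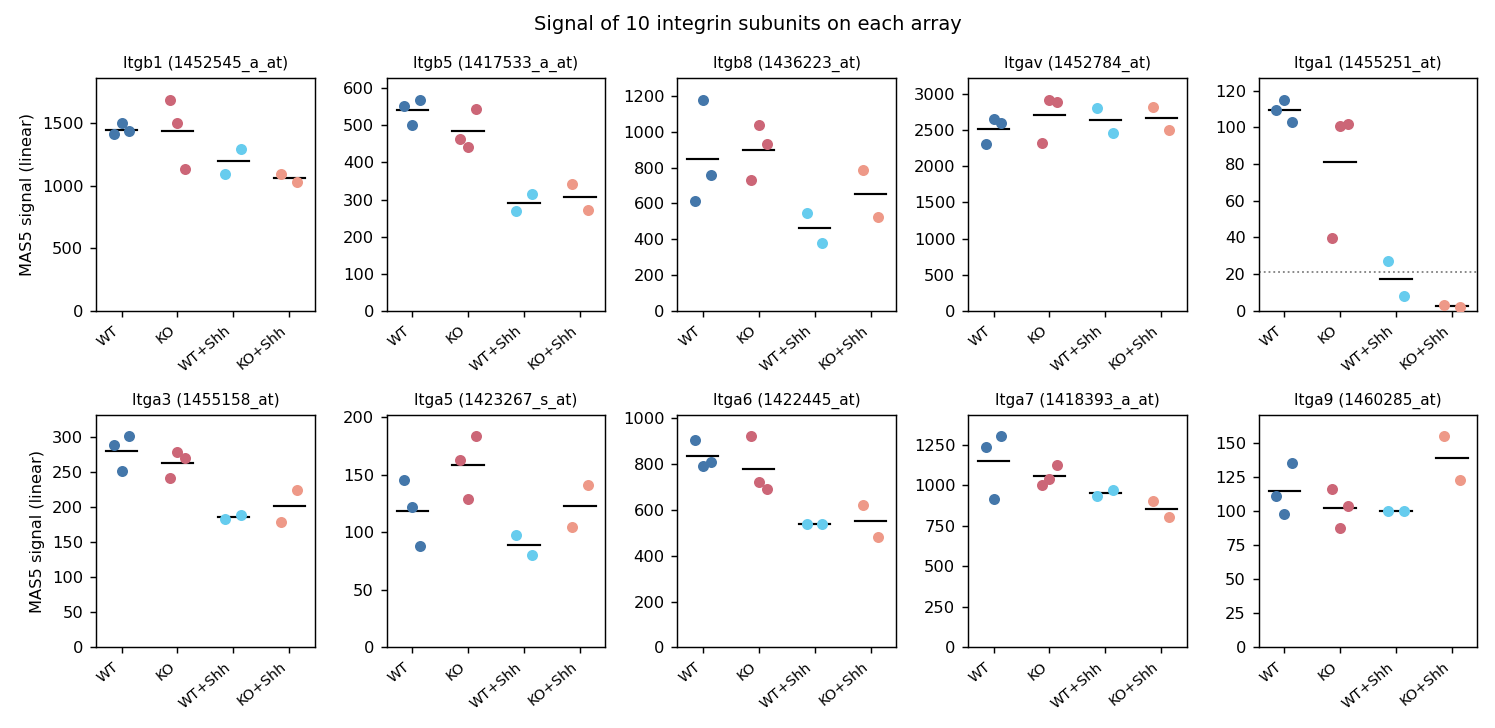
MAS5 signal (linear scale) of the representative probe set of each of the 10 integrin subunits. Points are arrays, bars are group means (n = 3 untreated, n = 2 with Shh), and the dotted line in the Itga1 panel is the floor of 20.9. For Itgb5, Itga3 and Itga6 every Shh array lies below every untreated array, while the groups of Itgav overlap.

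The promoters of Itgb5 and Itga3 are shown because both genes passed as lower in both genotypes in the main fit. A window of each also holds more GC boxes than those of the other subunits that have a window. Itga6, which passed as lower in both genotypes too, and Itga7 had no matched window. Itga3 has a further window, at chr11:95069149-95069448, which holds 1 GC box and is not shown. Each window runs from 250 bases before to 50 after the transcription start (RefSeq, GRCm38.p6), and capitals mark the GC box GGGCGG, a site for Sp1-type factors, or its reverse complement CCGCCC. Itgb5 lies on the plus strand at chr16:33829415-33829714, and the Itga3 window on the minus strand at chr11:95076665-95076964.
Itgb5: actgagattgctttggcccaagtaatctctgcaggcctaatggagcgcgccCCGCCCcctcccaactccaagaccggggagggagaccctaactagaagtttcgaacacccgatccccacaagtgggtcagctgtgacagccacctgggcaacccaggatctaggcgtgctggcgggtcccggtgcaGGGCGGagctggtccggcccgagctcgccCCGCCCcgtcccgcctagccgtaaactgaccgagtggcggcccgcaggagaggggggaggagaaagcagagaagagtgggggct
Itga3: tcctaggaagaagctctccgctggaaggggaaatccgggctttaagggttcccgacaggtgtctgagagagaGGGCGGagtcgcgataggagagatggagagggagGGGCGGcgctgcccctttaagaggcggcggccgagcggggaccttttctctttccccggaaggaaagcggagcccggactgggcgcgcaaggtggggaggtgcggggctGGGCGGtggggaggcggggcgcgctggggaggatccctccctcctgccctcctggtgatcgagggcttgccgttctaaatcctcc
Each of these windows holds 3 GC boxes. RefSeq windows were matched for 8 of the 10 subunits, 9 windows in all, and 6 of 9 hold a GC box on either strand, against 35.7% of 32851 windows. The Gli consensus GACCACCCA, or its reverse complement TGGGTGGTC, is in 0 of the 9 and in 0.253% of all windows. These are matches of letters in a window, not measured sites.

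Among the beta subunits, Itgb5, the partner of alpha V in vitronectin binding, gave the largest fall of those tested. Its signal was 552, 500 and 570 in untreated wild type cells and 463, 443 and 545 in untreated knockout cells. With Shh it was 269 and 314 in wild type and 341 and 271 in knockout. All 4 Shh arrays lay below all 6 untreated arrays. The group means were 541 ± 36.3 and 484 ± 54.3 untreated, and 291 ± 31.9 and 306 ± 49.5 with Shh (SD, wild type first). The log2 difference was -0.90 (SE 0.14, limma adjusted p = 0.00139) in wild type and -0.66 (SE 0.14, adjusted p = 0.00773) in knockout, and -0.78 on average (SE 0.10, adjusted p = 0.000232), which left 58.3% of the untreated signal. The knockout call was lost without replicate 10 (adjusted p = 0.0715). The wild type and average calls held whichever array was left out.

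The other 3 Itgb5 probe sets moved the same way. Probe set 1417534_at read 337, 292 and 364 in untreated wild type and 323, 273 and 257 in untreated knockout cells, and 104, 128, 119 and 140 on the Shh arrays (wild type first). Probe set 1456195_x_at read 370, 374 and 360 and then 342, 273 and 287 untreated, and 126, 88.4, 129 and 147 with Shh. On both, every Shh array was far below every untreated array. Tested as features of their own, 1417534_at fell by 1.33, 1456133_x_at by 0.77 and 1456195_x_at by 1.46 log2 units on average (adjusted p = 3.24e-05, 0.000102 and 2.42e-05 over 20179 probe sets). The size of the fall thus ranged from 0.77 to 1.46 among 4 probe sets of the gene.

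Itgb1, the common partner of most alpha subunits here, read 1414, 1500 and 1435 in untreated wild type and 1690, 1499 and 1136 in untreated knockout cells. With Shh it read 1097 and 1295 in wild type and 1094 and 1026 in knockout. The groups overlapped through knockout replicate 6, the lowest untreated array. The difference was -0.28 in wild type (SE 0.16, adjusted p = 0.203) and -0.42 in knockout (SE 0.16, adjusted p = 0.0761), neither of which passed. The average of -0.35 passed (SE 0.11, adjusted p = 0.0281), but not with consecutive array numbers as a block (adjusted p = 0.0610). It did not pass either with no filter, with the mean of all probe sets, or without replicate 3, 4, 7, 8 or 10. Over the alternatives this average ran from -0.44 to -0.05, with a limma adjusted p up to 0.664. The knockout difference passed without replicate 6 (adjusted p = 0.0110). Of the other Itgb1 probe sets that were tested, 1426918_at differed by -0.32 (adjusted p = 0.154) and 1427771_x_at by 0.14 (adjusted p = 0.726), and 3 more lay below the filter.

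Itgb8, which pairs only with alpha V, read 614, 1182 and 757 in untreated wild type and 731, 1038 and 935 in untreated knockout cells. With Shh it read 544 and 381 in wild type and 788 and 523 in knockout. Untreated wild type cells alone spanned 614 to 1182, and knockout replicate 8 lay inside the untreated range. The wild type difference of -0.85 (SE 0.30, adjusted p = 0.0554) and the knockout difference of -0.47 (SE 0.30, adjusted p = 0.274) did not pass. The average of -0.66 did (SE 0.21, adjusted p = 0.0288), but not without replicate 4, 6, 9 or 10 (adjusted p up to 0.110). The wild type difference passed without replicate 1 (adjusted p = 0.0296) and with the block (adjusted p = 0.0406).

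Itgav, the shared alpha chain of the beta 5 and beta 8 receptors, gave no such difference. It read 2315, 2655 and 2597 in untreated wild type, 2323, 2928 and 2888 in untreated knockout, 2817 and 2463 in wild type with Shh, and 2831 and 2502 in knockout with Shh. The groups overlapped throughout. The average difference was 0.02 (95% interval -0.19 to 0.23, adjusted p = 0.861), so a change of more than 0.23 in either direction lay outside the interval. The dimmer probe set 1421198_at read 111 to 192 untreated and 82.7 to 130 with Shh, a difference of -0.49 that did not pass over probe sets (adjusted p = 0.0510). The 2 Itgav probe sets therefore gave different values, and 3 others were below the filter.

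Among the laminin-binding alpha subunits, Itga6 read 905, 792 and 810 in untreated wild type and 922, 724 and 694 in untreated knockout cells. With Shh it read 537 and 540 in wild type and 623 and 480 in knockout, so all 4 Shh arrays were below all 6 untreated arrays. It fell by 0.63 in wild type (SE 0.15, adjusted p = 0.0119), by 0.50 in knockout (SE 0.15, adjusted p = 0.0377) and by 0.57 on average (SE 0.11, adjusted p = 0.00239). The wild type call was lost without replicate 7 or 9 (adjusted p = 0.0606 and 0.0617), each time leaving a single treated array. The knockout call was lost when any of replicates 2, 4, 5, 7, 9 and 10 was left out (adjusted p up to 0.262). The average call held whichever array was left out. A further Itga6 probe set, 1422444_at, read 529, 579 and 517 in untreated wild type, 437, 385 and 341 in untreated knockout, and 221 to 257 with Shh. It fell by 1.18 in wild type, 0.80 in knockout and 0.99 on average (adjusted p = 0.000323, 0.00316 and 5.89e-05 over probe sets).

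Itga3, whose product joins beta 1 in a laminin receptor, read 288, 251 and 301 in untreated wild type and 241, 278 and 270 in untreated knockout cells. With Shh it read 182 and 188 in wild type and 178 and 224 in knockout, again below every untreated array. It fell by 0.59 in wild type (SE 0.13, adjusted p = 0.0074), by 0.39 in knockout (SE 0.13, adjusted p = 0.0487) and by 0.49 on average (SE 0.09, adjusted p = 0.0020). Its knockout call was lost when any of replicates 1, 4, 5, 6, 7, 8 and 9 was left out (adjusted p up to 0.335), as it was with the block (adjusted p = 0.0565). The knockout call of Itga3 was lost as well with centring, quantile normalisation, the offset, no filter, other probe set rules and only the arrays compared. It held under 4 of 21 alternatives. Quantile normalisation also ended the other calls for Itga3 (wild type -0.34, adjusted p = 0.102, and average -0.28, adjusted p = 0.0508). The wild type call of Itga3 was lost with the mean of all probe sets too, and held under 19 of 21 alternatives. Its second tested probe set, 1421997_s_at, spread from 15.6 to 128 over the arrays and did not pass (-0.75, adjusted p = 0.224).

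Itga7, the third laminin-binding alpha subunit and best known from muscle, read 915 to 1303 untreated and 803 to 971 with Shh, with overlap. Its average difference of -0.28 did not pass (SE 0.11, adjusted p = 0.0543), and passed without wild type replicate 3 (adjusted p = 0.00496). Itga5, of the fibronectin receptor, read 87.8 to 184 untreated and 80.3 to 142 with Shh. Its average difference of -0.38 did not pass (SE 0.17, adjusted p = 0.0916), and passed without replicate 5 (adjusted p = 0.0282). Itga9 read 87.8 to 135 untreated and 100.4 to 155 with Shh, with differences of -0.18 in wild type (adjusted p = 0.446) and 0.44 in knockout (SE 0.17, adjusted p = 0.0865). After quantile normalisation the knockout difference of Itga9 was 0.71 and passed (adjusted p = 0.0102). Both Itga5 and Itga9 lay close to the filter, which is a signal of 76.4.

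**Figure D2:**
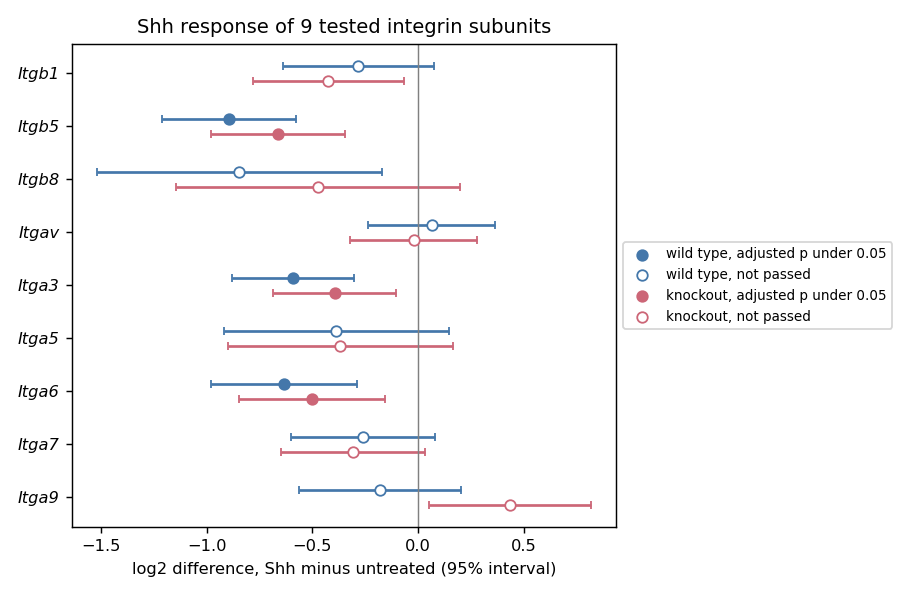
Log2 difference with Shh minus untreated for the 9 tested integrin subunits, in wild type (3 untreated, 2 Shh arrays) and in knockout (3 untreated, 2 Shh arrays). Bars are 95% intervals and filled points passed an adjusted p of 0.05. Itgb5, Itga3 and Itga6 are filled in both genotypes, at -0.90, -0.59 and -0.63 in wild type.

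Itga1, of the collagen receptor, was below the filter on both its probe sets and was not among the tested genes. Probe set 1455251_at read 110, 115 and 103 in untreated wild type, 39.9, 101 and 102 in untreated knockout, 26.9 and 8.19 in wild type with Shh, and 3.02 and 2.20 in knockout with Shh. The Shh arrays were all lower than the untreated ones, and 3 of the 4 were at or below the floor of 20.9, the 25th percentile of all values. Against that floor Itga1 was at least 4.61-fold lower with Shh in wild type, where 1 of 2 Shh arrays was at the floor, and at least 3.55-fold lower in knockout, where both were. In the fit with no filter these differences passed (adjusted p = 0.00951 and 0.0225), against 12.4% and 10.4% of all genes called lower there.

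Counted by overlap alone, 3 of 9 tested subunits had all 4 Shh arrays below all 6 untreated arrays, against 19.4% of all genes, and 0 of 9 had them all above, against 15.8%. Among all 17 tested probe sets, 7 fell in wild type (16.6% of all probe sets were lower), 5 in knockout (13.6%) and 9 on average (23%). The 9 belonged to 5 genes, and 4 of them were Itgb5, so they are not independent. Ranked among all tested genes by the average Shh difference, 10.9% of genes had a lower value than Itgb5, 13.2% than Itgb8, 15.8% than Itga6, 17.8% than Itga3, 22.4% than Itga5, 23.5% than Itgb1 and 27.1% than Itga7. Itgav stood at 53.3% and Itga9 at 66.1%.

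**Figure D3:**
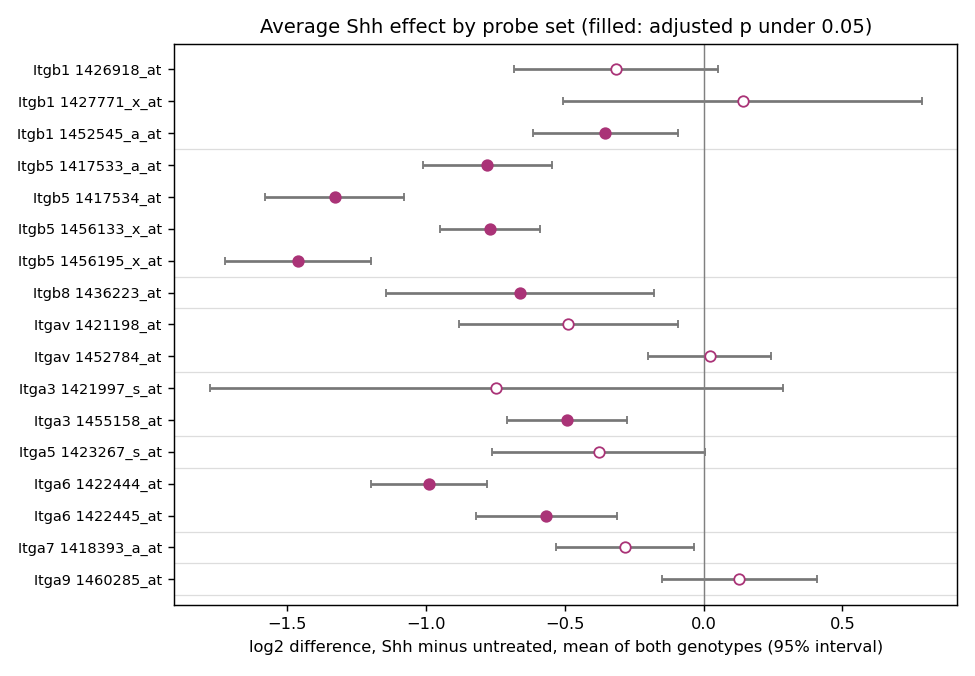
Average Shh effect over both genotypes for each of the 17 tested integrin probe sets, as a log2 difference with its 95% interval. Filled points passed an adjusted p of 0.05 over all probe sets. All 4 Itgb5 probe sets and both Itga6 probe sets are filled, while for Itgb1 a single probe set is.

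The question whether loss of Bmi1 changed the subunits was met by 4 comparisons, and no tested integrin passed in any of them. In untreated cells 0 of 9 passed, where 0.377% of all genes did, and with Shh 0 of 9, where 0.728% did. On average over treatments 0 of 9 passed, where 1.54% did, and 0 of 9 passed for the interaction, where 0.00877% did. The unadjusted p fell below 0.05 for 990 genes untreated, 1112 with Shh, 1479 on average and 561 for the interaction. Among the 9 subunits it did so for none untreated, for Itga9 with Shh, for Itga5 on average and for Itga9 in the interaction. The median difference of the 9 subunits, knockout minus wild type, was -0.09 untreated and 0.07 with Shh, beside 0.02 and 0.01 over all genes.

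Itga5 had the largest average genotype difference among the subunits, named after its value was seen. It read 163, 129 and 184 in untreated knockout against 145, 122 and 87.8 in untreated wild type, and 104 and 142 against 97.8 and 80.3 with Shh. The untreated groups overlapped and the Shh groups, of 2 arrays each, did not. With Shh this was so for 4 of 9 tested subunits. Itga5 and Itga9 were higher in knockout there, and Itgb1 and Itga7 lower. The share over all genes was not counted. The Itga5 average of 0.45 (SE 0.17) had an unadjusted limma p of 0.0255 and did not pass (adjusted p = 0.295). Itga9 with Shh was 155 and 123 in knockout against 100.5 and 100.4 in wild type, a difference of 0.46 (SE 0.19, unadjusted p = 0.0356, adjusted p = 0.452). Its interaction of 0.62 (SE 0.24, unadjusted p = 0.0299) did not pass either (adjusted p = 0.961).

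Of the subunits, 3 passed as lower in both genotypes in the main fit. Their untreated genotype difference was -0.16 for Itgb5 (95% interval -0.45 to 0.12), -0.09 for Itga3 (-0.35 to 0.17) and -0.11 for Itga6 (-0.42 to 0.20). Their interactions were 0.23 (-0.22 to 0.68), 0.20 (-0.21 to 0.61) and 0.13 (-0.36 to 0.62). Each fall was numerically smaller in knockout, and none of these differences passed. On probe set 1422444_at of Itga6, all 3 untreated knockout arrays lay below all 3 untreated wild type arrays. This Itga6 difference of -0.49 did not pass over probe sets (limma adjusted p = 0.235). The untreated knockout arrays were also all lower on the Itgb5 probe sets 1456133_x_at and 1456195_x_at. These probe sets are named for that separation, and its share over all probe sets was not counted. On the representative probe sets, the genotype groups did not overlap for 0 of 9 tested subunits untreated and for 4 of 9 with Shh. The share of all genes with such a separation was not counted.

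**Figure D4:**
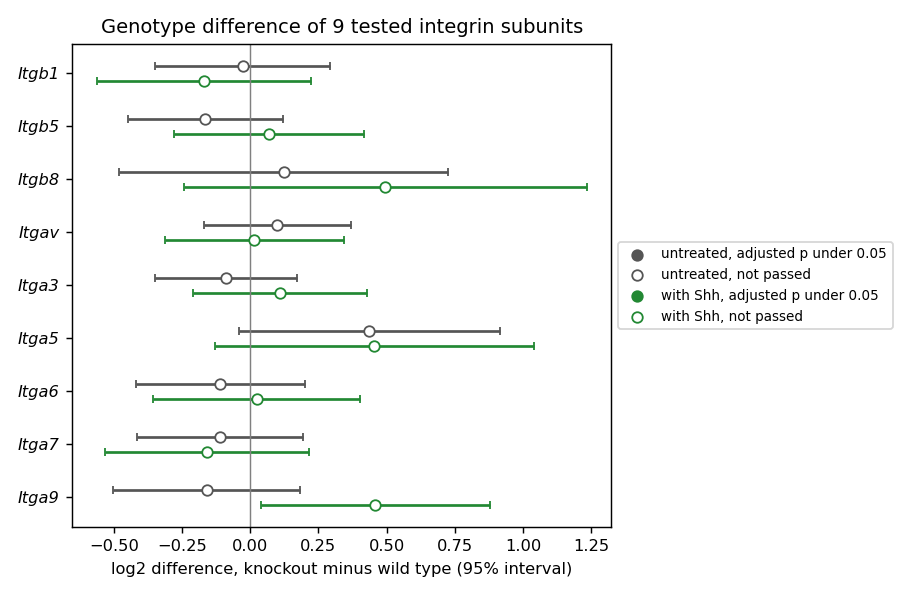
Log2 difference, knockout minus wild type, of the 9 tested integrin subunits without Shh (3 against 3 arrays) and with Shh (2 against 2 arrays). Bars are 95% intervals. All points are open because none passed an adjusted p of 0.05, and the interval for Itga9 with Shh (0.04 to 0.88) is the only one that leaves out 0.

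Most matrix ligands of integrins fell with Shh. Of 31 genes listed, 22 were tested, and on average 18 fell and 1 rose, against 26.2% and 20.9% of all genes, with a median of -1.80. The counts were 18 lower and 1 higher in wild type and the same in knockout (medians -1.87 and -1.79). Vtn (vitronectin, a ligand of alpha V beta 5) fell by 4.27, Lama4 (a laminin chain of vessels) by 3.96, Tnc (tenascin C, a ligand of alpha 9 beta 1) by 3.00, Col4a2 (basement membrane collagen) by 2.83 and Col1a2 (fibrillar collagen) by 2.79 log2 units, each with an adjusted p of 1.2e-06 or less. Vtn is also among the pericyte markers below, and Col1a2, Col3a1 and Fn1 among the fibroblast markers. Lama5, another laminin alpha chain, was the single ligand that rose, by 1.22 (adjusted p = 2.66e-05), and is named for that reason after its value was seen. Between genotypes 1 of 22 ligands passed, Tnr (tenascin R), which was 1.25 log2 units higher in knockout cells with Shh (adjusted p = 0.00946). Over all 11397 genes 0.728% passed in that comparison, 70 higher and 13 lower, with a median of 0.01. There oligodendrocyte markers were called higher in 3 of 10 genes and lower in none (median 0.61). Astrocyte and Bergmann glia markers were called higher in 2 of 13 (median 0.27). The same count was 1 of 10 for GABAergic and Purkinje markers (0.38), 1 of 6 for pericyte markers (0.42) and 1 of 8 for fibroblast markers (-0.19). The pericyte gene was Cspg4, which is also an oligodendrocyte marker. Endothelial and granule precursor markers had no call (-0.28 and -0.09). Microglia markers were called lower in 1 of 14 (median -0.40). The part of these cell types in the Tnr difference was not tested.

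Of 35 listed activators and adaptors that couple integrins to actin, 30 were tested, and 12 fell and 3 rose on average, with a median of -0.07. Over all genes 26.2% fell and 20.9% rose in this comparison, and the same shares apply to the lists that follow. The lower genes were led by Parvb (beta parvin, a partner of integrin-linked kinase) at -1.73, Parvg (gamma parvin) at -1.70, Tns1 and Tns3 (tensins, which bind beta tails) at -1.45 and -1.11, and Lims2 (a PINCH adaptor) at -0.81. The 3 that rose were Lims1 (the other PINCH) at 0.42, Fermt2 (kindlin 2, an integrin activator) at 0.23 and Crk (a signalling adaptor) at 0.17, named because they were the only ones to rise. Between genotypes, averaged over treatments, Flna (filamin A) was higher in knockout by 0.51 (adjusted p = 0.0288). In wild type 9 of the 30 adaptors were lower, against 19.8% of all genes. After quantile normalisation 5 were, while the number of all genes called lower went from 2260 to 1808. The adaptor count also dropped when replicate 7 or 9 was left out, each time leaving a single treated array.

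Of 12 tetraspanins and lateral partners of integrins, 11 were tested, and 7 fell and 1 rose, with a median of -0.43. Emp2, which binds integrins at the membrane, fell by 1.73, the tetraspanin Cd82 by 0.71, caveolin gene Cav1 by 0.63, the tetraspanin Cd151, a partner of the laminin-binding integrins, by 0.60 and basigin gene Bsg by 0.50. Plaur, the urokinase receptor, was the one that rose, by 0.40 (adjusted p = 0.0103). Tspan4 was lower in knockout by 0.67 on average over treatments (adjusted p = 0.0437).

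Of 14 genes for latent TGF-beta and its receptors, the substrate side of alpha V beta 8, 11 were tested, and 7 fell and 1 rose, with a median of -0.91. The largest falls were in Ltbp3 and Ltbp2 (latent TGF-beta binding proteins) at -2.24 and -2.08, Tgfbr2 (a TGF-beta receptor) at -2.23, Nrros (which holds latent TGF-beta on microglia) at -1.48 and Tgfb1 at -1.05. Tgfb2 rose by 1.01 (adjusted p = 3.33e-05) and is named as the single gene that did.

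Subunits outside the set were mostly below the filter. Of 8 other integrin subunits listed, Itga8, a partner of beta 1, was the only one tested, and it fell by 1.28 in wild type, 0.96 in knockout and 1.12 on average (adjusted p = 0.0124, 0.0468 and 0.00281). Of 8 leukocyte and platelet subunits 3 were tested. Itgb2, the beta chain of leukocyte integrins, rose by 1.94 in wild type, 2.18 in knockout and 2.06 on average (adjusted p = 1.6e-05 on average). Itgax, an alpha chain of the same family, rose by 0.88 in knockout (adjusted p = 0.00422) and by 0.44 on average (adjusted p = 0.0125). In wild type its difference was -0.0025 (adjusted p = 0.991), and the interaction of 0.88 did not pass (adjusted p = 0.685).

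**Figure D5:**
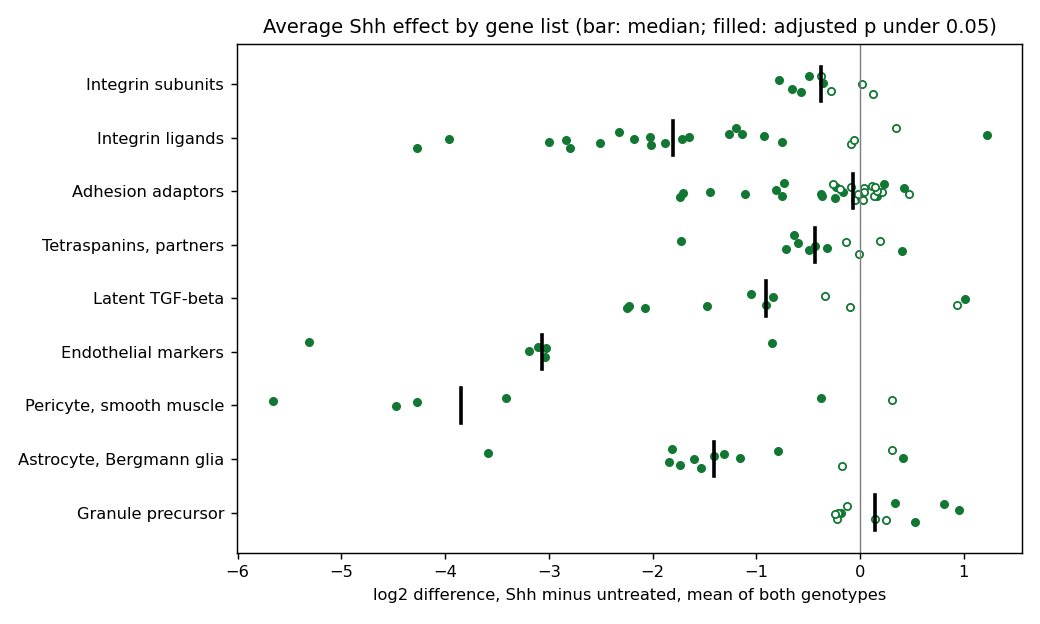
Average Shh effect over both genotypes (log2 difference) of each tested gene in 9 lists. Points are genes, filled where the adjusted p was below 0.05, and bars are medians. These are -0.38 for the integrin subunits, -1.80 for their ligands, -3.07 for endothelial markers and 0.14 for granule precursor markers. The granule precursor list includes the Shh targets Gli1 and Ptch1.

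Markers of other cell types moved with Shh in the same arrays. Summed signals are linear and run over every listed marker on the array, tested or not, so the brightest genes weigh most. Counts and medians cover the tested genes only. Endothelial markers fell in 6 of 6 tested genes (median -3.07), and their summed signal was 5345 to 6682 untreated and 1095 to 1304 with Shh. Pericyte and smooth muscle markers fell in 5 of 6 (median -3.84), with sums of 4218 to 6125 and 582 to 856; the defining smooth muscle genes Tagln and Cnn1 were at or below the floor on every array. Astrocyte and Bergmann glia markers fell in 10 of 13 and rose in 1 (median -1.41), with sums of 61737 to 78817 and 26051 to 36243. Fibroblast markers fell in 7 of 8 and rose in 1 (median -1.48), and 3 of the 7 are also ligands above. The sums over all 13 fibroblast markers on the array were 5721 to 7356 untreated and 4804 to 5423 with Shh. They cover more genes than that median, which is of the 8 tested. Oligodendrocyte markers fell in 8 of 10 and rose in 1 (-1.01), with sums of 34694 to 43744 and 16197 to 24312. The gene that rose was Pdgfra, which is also the one that rose among the fibroblast markers. Cspg4, which fell, is counted among the pericyte markers too. GABAergic and Purkinje markers fell in 8 of 10 (-1.19), with sums of 20074 to 42384 and 8204 to 11648. Microglia and macrophage markers fell in 8 of 14 and rose in 3 (-0.99), with sums of 8175 to 14035 and 4489 to 7427. Granule precursor markers, which check the labelled cell type, were present at sums of 51134 to 63974 untreated and 59990 to 63253 with Shh. Of 11, 4 rose and 1 fell (median 0.14). Those that rose include the Shh targets Gli1 (0.81) and Ptch1 (0.95), and Atoh1 (0.34). The 1 that fell was Pax6 (-0.19), and Zic1, Zic2, Barhl1 and Neurod1 did not pass. The count and median therefore do not measure cell type alone. In a mixed culture fewer cells of a type and less RNA per cell cannot be told apart, and the part of these cell types in the integrin differences was not tested.

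The genes whose profiles were most like that of Itgb5, the subunit with the largest fall among the 9 tested, were Mapk12, Tmem121b and Cadm4. Likeness is the root mean square difference between log2 profiles over the 10 arrays, each centred on its own mean, and it was 0.0969, 0.111 and 0.128 for these genes, where Itgb5 itself ranged over 1.09 log2 units. None of the 9 tested subunits rose, so no such list is given for a rise.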

How the data were processed

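RNA from 10 cultures (1.5 µg each) was hybridised to Affymetrix whole-genome mouse arrays (Mouse430_2), 1 array per culture. The deposited values are linear MAS5 signal intensities, made by the submitters with GCOS 1.2 per the submitters' processing notes and scaled to a target of 500. Of 45101 probe sets, 64 controls were left out; by the platform annotation 34945 carry 1 symbol, 932 several and 9160 none, and 34741 matched RefSeq (GRCm38.p6) by Entrez identifier. Probe sets with several symbols or none were not used. MAS5 gives unstable low values, so every signal under a floor of 20.9, the 25th percentile over arrays and probe sets, was raised to that floor before taking log2. The probe set of highest mean stood for a gene, and 11397 genes with a mean log2 of at least 6.26 were tested. The floor understates changes of dim genes.

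A single limma fit (version 3.58.1, R 4.3.3; lmFit and eBayes, 6 residual degrees of freedom) over all 4 groups gave every comparison, two-sided, with Benjamini-Hochberg adjustment over all genes tested. The same fit was run with 20179 probe sets as features. The script was tested on simulated data. The series states biological replicates without naming animals, so p-values measure the spread between these cultures. No 2 arrays were identical. The labels number the arrays 1 to 10, alternating genotype, and share no number between groups. A fit with consecutive numbers as a block was an alternative: same-pair deviations correlated at 0.278, 0.120 and 0.218 untreated and 0.160 with Shh. Other alternatives were another floor, an offset of 16, no filter, centring, quantile normalisation, other probe set rules, other variance priors, only the arrays compared, and each array left out.

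The members and gene lists were chosen with earlier results of these data known. All 10 integrins are named; from other lists, at most the 5 genes with the largest difference among those passing in a comparison, with any exception stated. For likeness, genes were named for the largest called rise and fall. The number of arrays limits the precision.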

Additional observations from a re-analysis of the deposited data

Results flagged for a closer look

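On the Itgb5 probe set 1456195_x_at the genotype difference ran in opposite directions without and with Shh. This probe set was picked for that separation, and the share of all probe sets with such a pattern was not counted. The untreated knockout arrays (342, 273 and 287) all lay below the untreated wild type arrays (370, 374 and 360), and the knockout arrays with Shh (129 and 147) all lay above the wild type arrays with Shh (126 and 88.4). The interaction was 0.68 log2 units (SE 0.23) and did not pass over all probe sets (limma adjusted p = 1.00). On the representative Itgb5 probe set the interaction was 0.23 and did not pass either (adjusted p = 1.00).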

How the results depend on the processing

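No called integrin result reversed. The 11 calls met 226 combinations with an alternative, of which 181 kept the call and 45 lost it, while 52 results without a call met 1056, of which 13 gained one. The 3 genotype comparisons and the interaction had 0 integrins under every alternative. The count of integrins changed by Shh was 2 to 4 in wild type over all arrays left out in turn, 1 to 3 in knockout and 3 to 6 on average (3 without replicate 4 or replicate 10; Itgb5, Itga3 and Itga6 both times). In knockout the count was 1, Itgb5, among the representative probe sets when every probe set was a feature (Itga6 then passed on its other probe set, 1422444_at) and with only the arrays compared, which leaves fewer arrays; it was also 1 without replicate 4, 5, 7 or 9 (Itgb5) or 10 (Itga3). Itgb5 in wild type and on average and Itga6 on average were called under every alternative that was run. With the replicate block, which has 3 residual degrees of freedom for genotype effects, the random block for Shh used a consensus correlation of 0.289. The block ended the average call for Itgb1 (adjusted p = 0.0610) and the knockout call for Itga3 (0.0565), made a call for Itgb8 in wild type (0.0406), and changed no other integrin call. Of the ligands, 14 (mean of all probe sets) to 23 (no filter, which tests more ligands) fell on average over the alternatives. Signals near the floor limit Itga1, Itga5 and Itga9 most. Over all genes, the number called, with its range over the alternatives that test genes, was 43 (12 to 82) for genotype untreated, 83 (3 to 135) for genotype with Shh, 176 (82 to 262) for the average genotype effect, 1 (0 to 8) for the interaction, 3852 (2380 to 4118) for Shh in wild type, 3198 (1891 to 3459) in knockout and 5372 (4351 to 5680) on average. With probe sets as features, 5436, 4361 and 8122 of 20179 were called for Shh in wild type, in knockout and on average.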
